A study of Arabidopsis thaliana with 24 samples.

Results

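The genes described here are little studied and had almost no reads left in Arabidopsis thaliana seedlings after a day in the cold. They are AT1G12805, AT3G29370 (P1R3), AT1G33055, AT2G29300 and AT4G08505, 5 of the 32833 genes in the deposited table. They were chosen by their counts, for reads in every control library and values at or near 0 after 24 h at 4 °C. That contrast is therefore given as a description only, with no test, and intervals on its size cover counting error only. All 5 were among the 21428 genes that passed the filter on low counts, which the control libraries alone could satisfy. The RNA came from whole seedlings on MS medium, all in the Col-0 background: wild type (WT) and lines homozygous for the T-DNA insertions uap1-1 or uap1-2. Plants of each genotype stayed at the normal growth temperature (control) or spent the last 24 h at 4 °C (cold), with 4 libraries in each of the 6 groups, which the labels describe as biological replicates. The labels place the harvest at 12 days in one field and speak of 10-day-old plants in another, and growth temperature, day length and hour of harvest are not given in the sources used here. No gene of the table is named UAP1, so the mutated locus was not checked.

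Plants moved into the cold lower the transcripts of many growth and metabolic genes while they build up protective proteins. The 5 genes belong to different families. AT1G33055 is known as part of the core low-oxygen response, which in plants is switched on by group VII ERF transcription factors that are degraded while oxygen is present. P1R3 is annotated as an atypical basic helix-loop-helix protein, a class of small regulators that mostly act by pairing with other transcription factors. The deposited table describes both P1R3 and AT1G33055 only as uncharacterized proteins. AT2G29300 belongs to the short-chain dehydrogenases related to tropinone reductases, AT4G08505 is a long non-coding RNA, and AT1G12805 is described in the table only as a nucleotide binding protein.

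Levels are given as raw counts or as CPM, which are counts brought to a shared library size with TMM factors. Library totals ran from 19289385 to 25501547 counts over the 24 libraries, so that a count of 1 was worth 0.0355 to 0.0641 CPM. Replicates differed by more than sampling noise in all 36 within-group pairs, with a chi-square per degree of freedom of 8.78 to 152. Leaf marker genes (RBCS1A, LHCB1.1, RCA and LHCA1) summed to 14000 to 36200 CPM in every library. The 5 root markers summed to 422 to 2270 CPM, flower markers to at most 5.11 CPM, and seed markers to at most 22.8 CPM, with CRC at 0 in 5 of the 6 groups. In bulk RNA from whole seedlings, fewer cells of a type and less RNA per cell cannot be told apart. Cold against control changed 11619 genes (54.2% of those tested) in WT, 11971 (55.9%) in uap1-1 and 11245 (52.5%) in uap1-2, at an adjusted p under 0.05 by edgeR's quasi-likelihood test. The shares that fell were 28.4%, 29.2% and 26%, and those that rose 25.8%, 26.7% and 26.5%. With library totals in place of TMM, the rises and falls were 4109 and 7506 in WT, 3387 and 9745 in uap1-1, and 4198 and 6998 in uap1-2, and the median log2 change of all genes moved from -0.06 to -0.27, from -0.07 to -0.5 and from -0.01 to -0.2.

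In all 3 genotypes, every cold library of each of the 5 genes lay below every control library of that gene. Since the genes were chosen for this, nothing is read from it. The mean cold level over the 12 cold libraries was 0.239% of the control mean for AT1G12805, 0.928% for P1R3, 0.982% for AT1G33055, 1.98% for AT2G29300 and 2.57% for AT4G08505. Among 19057 genes with a control mean of at least 1 CPM, a limit set after the values were seen, the median gene kept 95% of its control level and 49 genes (0.257%) kept 5% or less. AT1G12805 had the lowest share of all of them, and the others stood at ranks 6, 8, 16 and 22. Next to the 5 in that order, AT4G34790 at rank 2 kept 0.242% and BBX17 at rank 23 kept 2.65%. Per transcript length, the control level in WT was highest for AT2G29300 with 28.5 ± 3 FPKM (SD, n = 4), followed by AT1G12805 with 10.8 ± 7.63, P1R3 with 5.88 ± 3.71, AT4G08505 with 4.12 ± 1.62 and AT1G33055 with 4.07 ± 2.48 FPKM. The libraries of the last 4 overlapped. AT2G29300 was the only gene with reads in all 12 cold libraries.

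**Figure D1:**
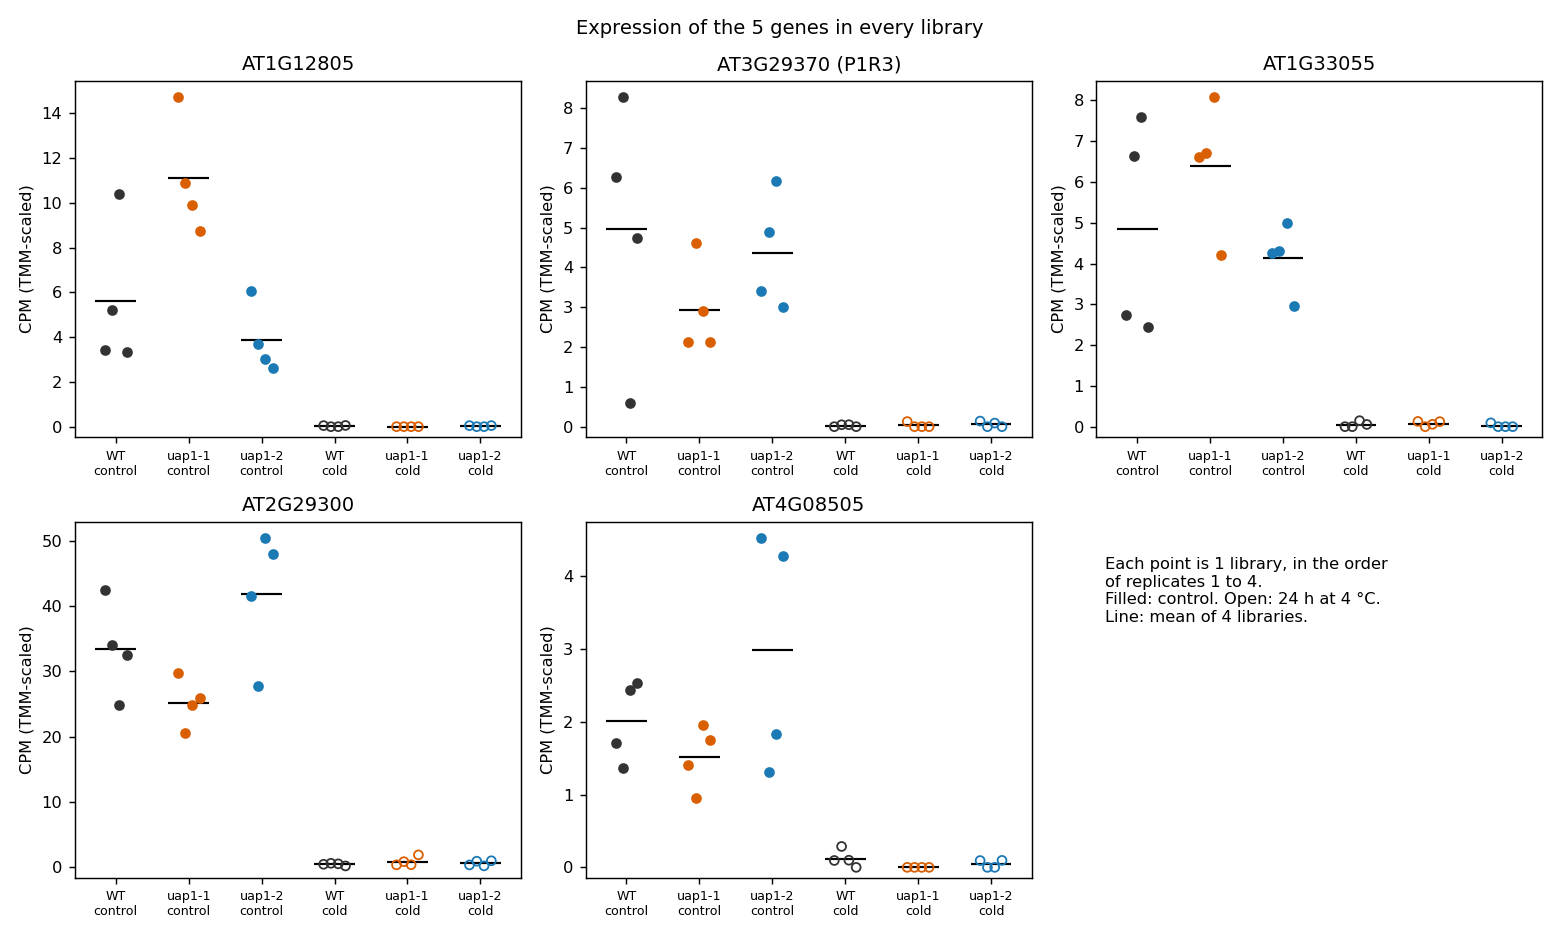
CPM (TMM-scaled) of each of the 5 genes in every library, by group, with filled points for control, open points for 24 h at 4 °C and a line at the mean of 4 libraries. The cold libraries lie at or close to 0 in each panel, while control libraries of the 3 genotypes overlap except those of uap1-1 and uap1-2 for AT1G12805.

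Apart from their cold counts, 4 of the 5 genes shared a simple structure. AT1G12805, P1R3, AT1G33055 and AT4G08505 each consist of 1 exon, whereas 14% of 20579 tested protein-coding genes do. That share does not cover non-coding genes such as AT4G08505. The coding sequences of AT1G12805, P1R3 and AT1G33055 are 228, 306 and 201 bases long, for proteins of 75, 101 and 66 residues, against a median of 1152 bases. At most 306 bases of coding sequence are found in 4.27% of the tested protein-coding genes, and 1.34% are this short and have 1 exon. These shares are of all tested protein-coding genes and not of other little-studied genes. Whether the choice of little-studied genes brought the structure with it was not tested. AT1G33055 carries an annotated 3′ UTR of 1028 bases. AT2G29300 differs from the rest, with 5 or 6 exons and a coding sequence of 792 or 861 bases depending on the transcript.

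The 300 bases before the annotated start are shown for the 3 genes whose window holds no other gene, because short motifs of cold, clock and light control are usually sought there. Sequences and coordinates are from the RefSeq annotation of TAIR10.1, on which 32532 of the table's 32548 located genes have the same start and end. Each is written 5′ to 3′ on the strand of its gene, and capitals mark the G-box CACGTG in the first and the TATA box word TATAAA in the others.
AT1G12805, chr1:4366277-4366576, plus strand: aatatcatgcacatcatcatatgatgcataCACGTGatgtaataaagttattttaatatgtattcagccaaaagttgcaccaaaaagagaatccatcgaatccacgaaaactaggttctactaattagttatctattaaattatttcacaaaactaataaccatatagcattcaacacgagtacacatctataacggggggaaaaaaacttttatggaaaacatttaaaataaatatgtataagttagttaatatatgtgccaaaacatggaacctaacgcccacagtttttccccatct
P1R3, chr3:11278075-11278374, plus strand: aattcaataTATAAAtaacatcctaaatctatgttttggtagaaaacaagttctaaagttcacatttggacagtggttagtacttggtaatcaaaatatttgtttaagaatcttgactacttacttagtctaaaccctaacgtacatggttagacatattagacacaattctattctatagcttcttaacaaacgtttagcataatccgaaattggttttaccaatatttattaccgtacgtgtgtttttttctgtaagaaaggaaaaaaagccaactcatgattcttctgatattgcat
AT1G33055, chr1:11972581-11972880, minus strand: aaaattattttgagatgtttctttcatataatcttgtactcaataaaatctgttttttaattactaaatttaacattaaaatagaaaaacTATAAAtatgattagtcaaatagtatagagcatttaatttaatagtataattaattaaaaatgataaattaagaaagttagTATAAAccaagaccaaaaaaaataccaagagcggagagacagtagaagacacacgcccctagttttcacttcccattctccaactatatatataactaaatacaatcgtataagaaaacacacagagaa

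The G-box, bound by bHLH and bZIP factors, began 270 bases before the start of AT1G12805, and 6.65% of 30922 windows of the same length before annotated genes hold it on either strand. TATAAA began 291 bases before the start of P1R3 and 210 and 129 bases before that of AT1G33055, and 51.7% of all windows hold it. The core of the cold-response element bound by CBF factors, CCGAC, was in none of the windows of the 5 genes on either strand, and in 13.6% of all windows. The evening element AAAATATCT (2.72% of all windows) and the CCA1-binding word AAAAATCT (7.75%), both tied to the circadian clock, were also in none of the 5. These are matches of letters in a window and not shown to be binding sites.

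AT1G12805 (chromosome 1, 4366577 to 4367136, plus strand) had 66, 118, 245 and 75 counts in the 4 WT control libraries and 1, 0, 0 and 1 in the WT cold libraries. In uap1-1 the control counts were 348, 229, 262 and 210, and all 4 cold libraries had 0. In uap1-2 they were 157, 104, 73 and 60, with 1, 0, 0 and 1 in the cold. Over the 12 control libraries this was 1947 counts, against 4 over the 12 cold libraries, of which 8 had none. The scaled control level was 231 times the cold level in WT (95% exact interval 63.7 to 1920, counting error only) and 163 times in uap1-2 (44.7 to 1350). In uap1-1, where no cold read was counted, it was at least 270-fold higher, taking a floor of 3 counts over the group. The cold level was 0.453% of control in WT and 0.281% without WT cold replicate 4, and 0.615% in uap1-2 and 0.404% without uap1-2 cold replicate 4. None of the gene's 31-base words occurs elsewhere in the genome, and no other Arabidopsis protein matched its protein at an E value under 1e-10.

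The control level of AT1G12805 was highest in uap1-1 and lowest in uap1-2. It was 5.59 ± 3.34 CPM in WT (SD, n = 4), 11.1 ± 2.6 in uap1-1 and 3.85 ± 1.54 in uap1-2. The uap1-1 libraries ran from 8.75 to 14.7 CPM and the uap1-2 libraries from 2.62 to 6.07 CPM, without overlap, while WT ran from 3.33 to 10.4 CPM and overlapped both. Among the 15 pairs of genotypes over the 5 genes under control conditions this was the only pair of groups that did not overlap. The share of all genes whose groups do not overlap was not counted, so nothing is read from this. The log2 difference of uap1-1 from WT was 0.98 (SE 0.36, adjusted p = 0.43 by edgeR, 0.144 to 0.784 over 13 alternatives). The difference of uap1-2 from uap1-1, a comparison added after these levels were seen, was -1.52 (SE 0.37), with an unadjusted p of 0.000539 and an adjusted p of 0.467 over all genes (0.067 to 0.999 over 13 alternatives). Of the 5 root markers, 4 had the same order of group means (PYK10, MYB36, RHD6 and IRT1), and SCR did not. PYK10, a beta-glucosidase that makes up most of the root marker sum, ran from 1550 to 2240 CPM in uap1-1 control, from 774 to 1810 in WT control and from 692 to 1460 in uap1-2 control. The other 4 root markers summed to 30.5 ± 3.65 CPM in uap1-1 control, 31.1 ± 4.25 in WT control and 27 ± 1.94 in uap1-2 control, and none of them was at 0 in a whole group. SCR, the most abundant of these 4, had its lowest mean in uap1-1, at 22.7 ± 2.56 CPM beside 25.1 ± 2.49 in WT and 23 ± 2.45 in uap1-2. Their part in the difference was not tested.

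AT1G33055 (chromosome 1, 11971308 to 11972580, minus strand) is annotated in RefSeq with a role in anaerobic respiration. It had 53, 151, 178 and 55 counts in WT control and 0, 0, 3 and 1 in WT cold. In uap1-1 the control counts were 156, 141, 214 and 101 and the cold counts 2, 0, 1 and 2, and in uap1-2 they were 110, 121, 120 and 68 in control and 2, 0, 0 and 0 in the cold. No cold library exceeded 3 counts. The control level was 100 times the cold level in WT (95% exact interval 38.9 to 370, counting error only). It was 94.3 times in uap1-1 (40.2 to 292) and 173 times in uap1-2 (47.6 to 1430). Single cold libraries held much of these few counts: the cold level of 1.04% of control in WT was 0.372% without WT cold replicate 3, and that of 0.566% in uap1-2 was 0% without uap1-2 cold replicate 1. Control levels were 4.85 ± 2.64 CPM in WT, 6.4 ± 1.61 in uap1-1 and 4.13 ± 0.845 in uap1-2, and all 3 ranges overlapped. In WT control, replicates 2 and 3 were high and 1 and 4 low for this gene, and replicate 3 was also the highest for AT1G12805. The last 225 bases of the gene (17.7% of its length) overlap AT1G33050 on the same strand. Reads there could be counted for either gene or for neither, as the handling of such reads is not stated. AT1G33050 was at 60 ± 6.93 CPM in WT control and 53.8 ± 3.1 in WT cold, with a log2 change of -0.16 (SE 0.14, adjusted p = 0.364).

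Over all 24 libraries, the genes whose log2 CPM followed AT1G12805 most closely were ACO1 (Pearson r = 0.984), an ACC oxidase that makes ethylene, HRA1 (AT3G10040, r = 0.982), a trihelix factor that dampens the low-oxygen response, and SAD6 (AT1G43800, r = 0.979), an acyl carrier protein desaturase. SAD6 was also among the closest 3 to AT1G33055 (r = 0.978), after the lipase-like gene AT1G28580 (r = 0.982) and level with AT1G03210 (r = 0.978), a PhzC/PhzF family gene. Control and cold libraries form separate clusters in each of these genes, so these r mostly restate the cold difference and carry no test. HRA1 had 134, 214, 357 and 209 counts in WT control and 15, 13, 3 and 11 in WT cold, and SAD6 had 612, 1117, 1242 and 511 in control and 24, 52, 20 and 11 in the cold. Over the 12 control libraries alone, the genes closest to AT1G12805 were the glycosyltransferase gene AT1G64920 (r = 0.954), RPB5C (r = 0.953), which encodes an RNA polymerase II subunit, and AT4G33560 (r = 0.951), a gene of the low-oxygen list. Those closest to AT1G33055 there were the lipase gene GLIP2 (r = 0.956), ALIS5 (r = 0.951) and PCO1 (AT5G15120, r = 0.94). PCO1 is a plant cysteine oxidase that marks ERF-VII factors for degradation in the presence of oxygen. As the highest of 21427 genes over 12 libraries, these r carry no test either, here and for the other members.

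**Figure D2:**
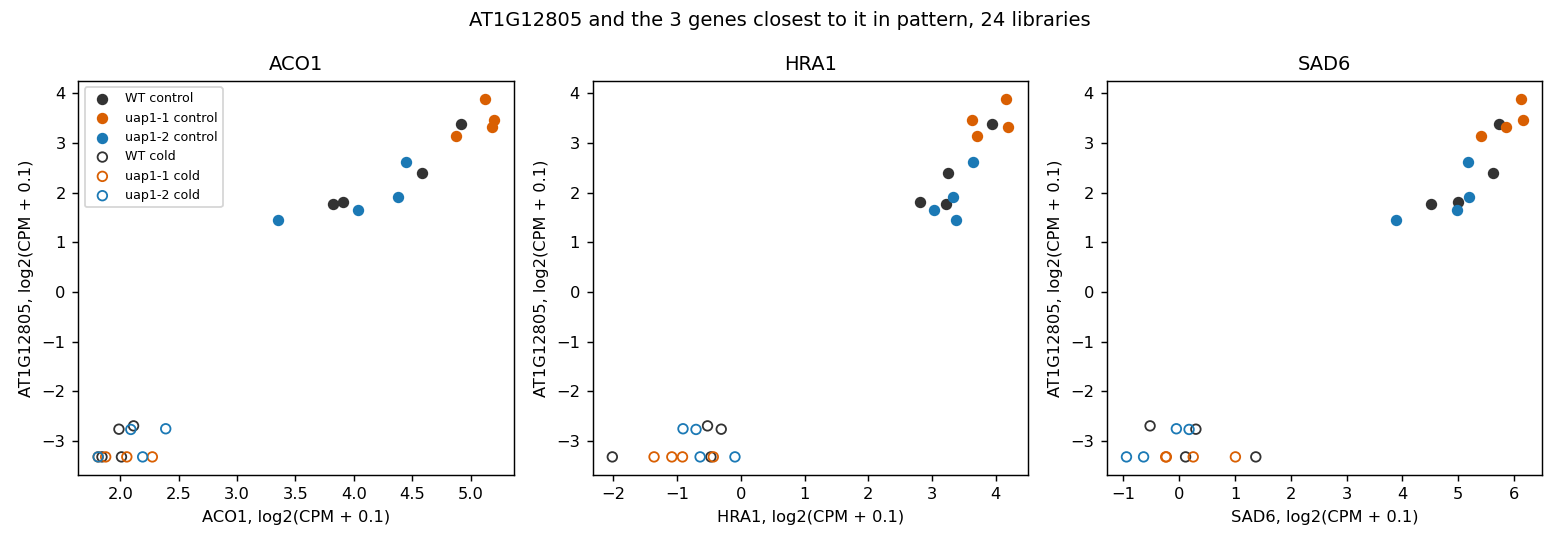
Level of AT1G12805 against ACO1, HRA1 and SAD6 in 24 libraries, each axis log2(CPM + 0.1), filled for control and open for cold, coloured by genotype. The cold libraries form a cluster at the bottom left of each panel. Among control libraries uap1-1 lies towards the top right and uap1-2 towards the bottom. For HRA1 the means of WT control and uap1-2 control are the same, 10.2 CPM.

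The low-oxygen list is a chosen part of that response, drawn up with earlier results of these data known. It holds 26 other genes, all of which were tested. Among all tested genes, 28.4% fell and 25.8% rose in WT, 29.2% and 26.7% in uap1-1, and 26% and 26.5% in uap1-2. In WT, 15 of the 26 fell, 7 rose and 4 passed the threshold in neither direction. Their median log2 change was -1.37, beside -0.06 over all tested genes. In uap1-1, 16 fell and 6 rose (median -1.62), and in uap1-2, 15 fell and 4 rose (median -0.92). With library totals in place of TMM the counts were 17 and 6 in WT, 18 and 3 in uap1-1 and 16 and 4 in uap1-2, and no gene called above changed direction. HRA1 fell by 4.28 on the log2 scale in WT (SE 0.34, adjusted p = 3.79e-10), SAD6 fell by 4.89 (SE 0.41), AT4G27450 fell by 5.37 (SE 0.49) and ACO1 fell by 2.42 (SE 0.24). The 4 rises with the smallest adjusted p were of enzymes, but ACO1, SAD6 and PCO1, which fell in WT, also encode enzymes. Not every rise in the list was of an enzyme. SUS1, a sucrose synthase, rose by 5.13 (SE 0.24), from 68 ± 19.1 to 2390 ± 319 CPM in WT. ADH1, the alcohol dehydrogenase of ethanol fermentation, rose by 4.53 (SE 0.33), from 59.8 ± 29.7 to 1390 ± 98.5 CPM, and PDC1, a pyruvate decarboxylase, rose by 3.49 (SE 0.36). LDH1, a lactate dehydrogenase, rose by 0.94 (SE 0.2). AT1G12805 and AT1G33055 were thus low in the same cold libraries in which ADH1 was at 1250 to 1480 CPM in WT, 1170 to 1630 in uap1-1 and 954 to 1250 in uap1-2. AT5G10040, a further low-oxygen gene of unknown function, was also near 0 in the cold, with 1.3 ± 0.693 CPM in WT control and 0.0135 ± 0.0271 in WT cold.

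**Figure D3:**
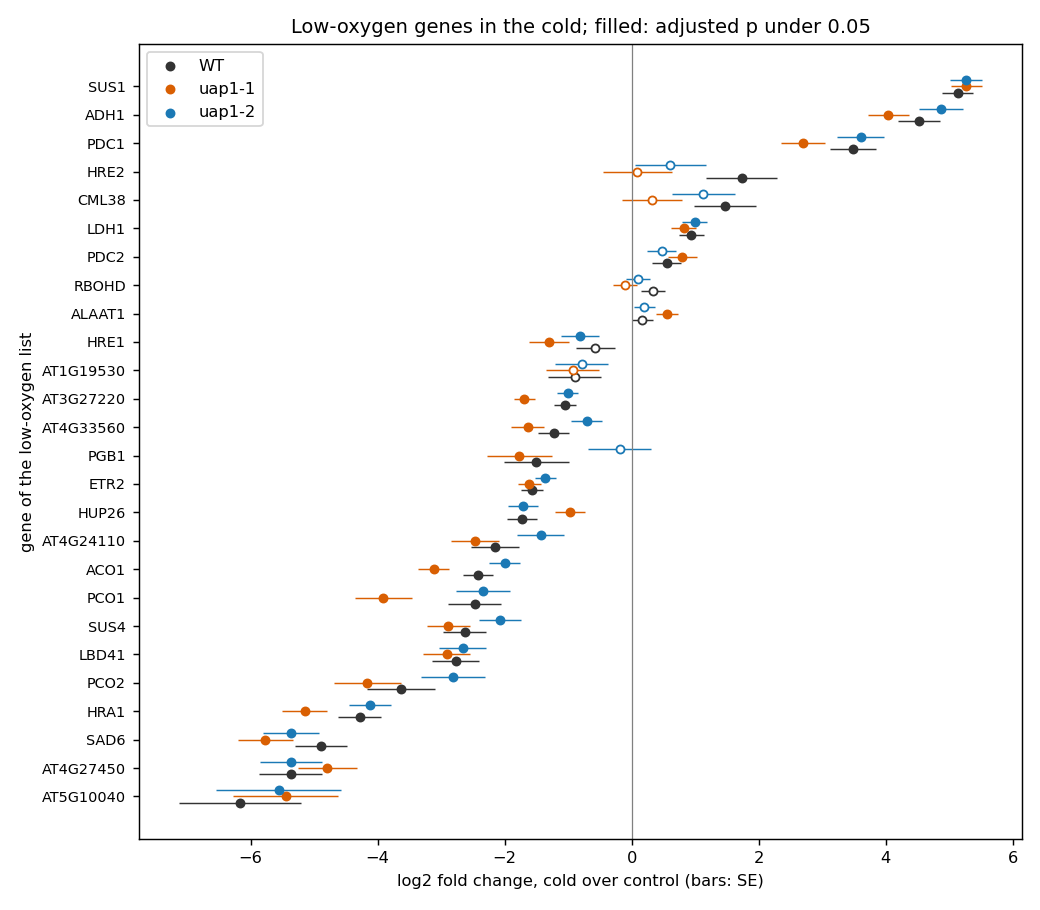
Log2 fold change of cold over control for the 26 low-oxygen genes in WT, uap1-1 and uap1-2, with bars of 1 SE and filled points for an adjusted p under 0.05. SUS1, ADH1 and PDC1 lie at the top with changes of 2.7 to 5.27, and HRA1, SAD6, AT4G27450 and AT5G10040 at the bottom with changes of -4.12 to -6.17.

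P1R3 (AT3G29370, chromosome 3, 11278375 to 11279214, plus strand) had 121, 188, 14 and 107 counts in WT control and 0, 1, 1 and 0 in WT cold. In uap1-1 it had 50, 97, 77 and 51 in control and 2, 0, 0 and 0 in the cold. In uap1-2 it had 88, 138, 148 and 69 in control and 3, 0, 2 and 0 in the cold. WT replicate 3 stood low among the control libraries with 0.596 CPM, while the other 11 ran from 2.12 to 8.27 CPM, and in that library AT1G12805 was at its WT maximum. The control level was 197 times the cold level in WT (95% exact interval 54.3 to 1640, counting error only). It was 106 times in uap1-1 (29.1 to 880) and 73.2 times in uap1-2 (31.1 to 226). The cold level went from 0.488% of control in WT to 0.321% without WT cold replicate 3, from 1.09% in uap1-1 to 0% without uap1-1 cold replicate 1, and from 1.32% in uap1-2 to 0.69% without uap1-2 cold replicate 1. Control levels of 4.97 ± 3.25 CPM in WT, 2.94 ± 1.18 in uap1-1 and 4.37 ± 1.45 in uap1-2 overlapped.

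A single other Arabidopsis protein matched P1R3 at an E value under 1e-10. This was AT5G39240 (chromosome 5, 15712549 to 15713158), annotated as a transcription factor UPBEAT-like protein, with 51.8% identity over 112 aligned residues. It rose in the cold in all 3 genotypes, by 2.1 on the log2 scale in WT (SE 0.33, adjusted p = 1.04e-05), 1.41 in uap1-1 (SE 0.32, adjusted p = 0.000674) and 1.6 in uap1-2 (SE 0.32, adjusted p = 0.00021) by edgeR. In WT it had 91, 85, 41 and 95 counts in control and 286, 260, 497 and 211 in the cold, without overlap. The genes closest to P1R3 over 24 libraries were MEE59 (r = 0.985), AT5G08330 (listed as TCP11, a TCP family transcription factor, r = 0.984) and AT1G29465 (r = 0.983), which had control means of 298, 60.4 and 15.4 CPM and cold means of 44.5, 10.4 and 1.29 CPM. Over the 12 control libraries they were AT2G44770 (r = 0.983), AT2G42900 (r = 0.97) and DI19 (r = 0.967), a zinc-finger gene named for its response to drought. AT2G44770 had similar means in control and cold, at 37 and 42.4 CPM. How far the low value of P1R3 in WT control replicate 3 carries the r over control libraries was not tested. Over the same 12 libraries P1R3 had r = -0.67 with the TMM factor.

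AT2G29300 (chromosome 2, 12588191 to 12589759, plus strand) was the most abundant of the 5 genes. It had 821, 775, 583 and 734 counts in WT control and 10, 13, 11 and 4 in WT cold. In uap1-1 the counts were 700, 430, 659 and 622 in control and 6, 21, 7 and 31 in the cold, and in uap1-2 they were 1074, 781, 1212 and 1098 in control and 8, 18, 5 and 21 in the cold. The control level was 70.4 times the cold level in WT (95% exact interval 51.2 to 99.7), 66.2 times in uap1-2 (50.4 to 88.7) and 28.6 times in uap1-1 (22.3 to 37.2). These intervals cover counting error only. Replicates 2 and 4 were the highest cold libraries in both mutants, and the cold ranges of 0.217 to 0.622 CPM in WT, 0.384 to 1.91 in uap1-1 and 0.226 to 1.01 in uap1-2 overlapped. The cold level in uap1-1 was 3.53% of control and 2.19% without uap1-1 cold replicate 4, beside 1.38% in WT and 1.52% in uap1-2. Control levels were 33.5 ± 7.23 CPM in WT, 25.2 ± 3.78 in uap1-1 and 41.9 ± 10.1 in uap1-2.

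AT2G29300 sits in a run of related dehydrogenase genes on chromosome 2. The 6 described here, among them AT2G29300 itself, had lower means in the cold. Cold values of further related genes in the run, such as AT2G29260, SAG13 (AT2G29350), AT2G29360 and AT2G29370, were not looked up. The AT2G29300 protein matched 41 others at an E value under 1e-10, the best being AT2G29320 with 92.1% identity over 254 residues. Of the gene's 31-base words, 4.85% occur elsewhere, so some reads could belong to its copies. AT2G29290, which ends 17 bases before AT2G29300 begins, fell by 3.63 on the log2 scale in WT (SE 0.21, adjusted p = 1.89e-12), from 75.5 ± 11.1 to 6.07 ± 0.966 CPM. AT2G29310, which begins 107 bases after it ends, fell by 2.97 (SE 0.35, adjusted p = 2.14e-07), from 158 ± 73.4 to 20.1 ± 9.45 CPM, and AT2G29320 fell by 1.85 (SE 0.22). TRI (AT2G29330), a tropinone reductase, fell by 2.11 (SE 0.43) and AT2G29340 fell by 1.69 (SE 0.4). The mean cold level was 8.04% of control in WT for AT2G29290, 12.7% for AT2G29310, 27.7% for AT2G29320, 23% for AT2G29330 and 30.9% for AT2G29340, beside 1.38% for AT2G29300, which was picked for its low value. Of the 6 best protein matches, AT1G07450 on chromosome 1 rose, by 1.43 in WT (SE 0.31, adjusted p = 0.000516), 4 fell, and AT2G30670 at 0.459 ± 0.407 CPM in WT control had a log2 change of -0.44 (SE 0.79, adjusted p = 0.659). The same split of 4 and 1 was found in both mutants, although the fall of AT2G29340 in uap1-1 (adjusted p = 0.0208) ended without uap1-1 cold replicate 2 (adjusted p = 0.0552), cold replicate 4 (0.0568) or control replicate 2 (0.0876).

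**Figure D4:**
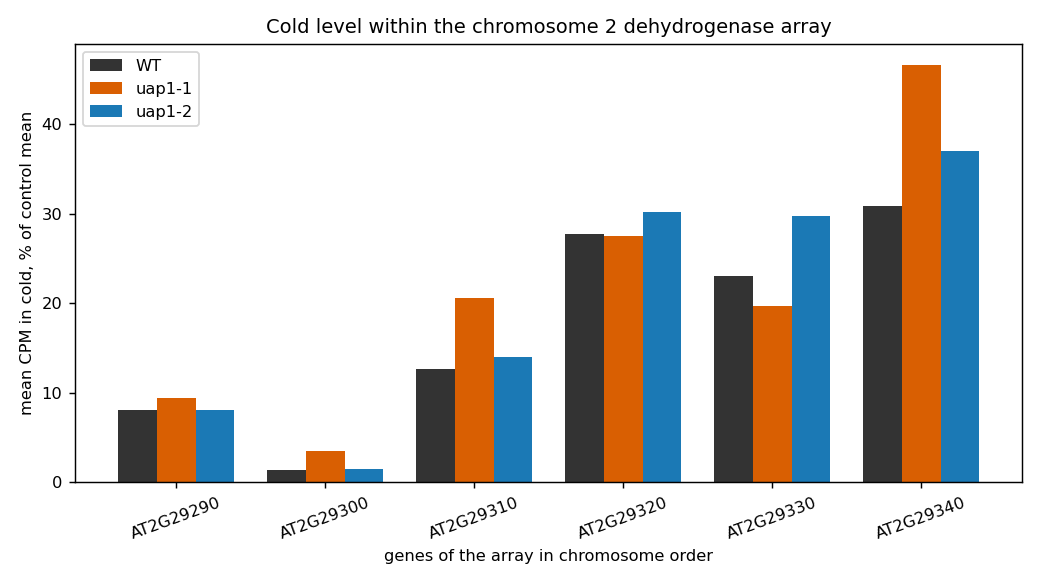
Mean CPM in the cold as a percent of the control mean (bars from 0) for 6 dehydrogenase genes in their order on chromosome 2, in WT, uap1-1 and uap1-2. AT2G29300 has the lowest bars, 1.38% to 3.53%, and AT2G29290 beside it has 8.04% to 9.38%.

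The genes closest to AT2G29300 over 24 libraries were AT1G75460 (r = 0.99), a LON-domain protease gene, the protein kinase gene AT4G01330 (r = 0.988) and AT1G24148 (r = 0.988). Over the 12 control libraries they were Fes1B (r = 0.934), the DnaJ-domain gene AT5G18140 (r = 0.92) and DCP2 (r = 0.915), the decapping enzyme of mRNA decay. Fes1B went from a control mean of 108 CPM to a cold mean of 10.2 CPM, and DCP2 had means of 24.8 and 24.4 CPM. None of these 6 was among the closest genes of the other 4 members.

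AT4G08505 (chromosome 4, 15239724 to 15240243, plus strand) is a long non-coding RNA of 520 bases, with no description in the table. It had 33, 31, 57 and 57 counts in WT control and 2, 6, 2 and 0 in WT cold. In uap1-1 it had 33, 20, 52 and 42 in control and 0 in all 4 cold libraries, and in uap1-2 117, 37, 44 and 98 in control and 2, 0, 0 and 2 in the cold. The control level was 16.3 times the cold level in WT (95% exact interval 8.68 to 34.7, counting error only). It was 61.1 times in uap1-2 (23.6 to 226) and at least 37.8-fold higher in uap1-1, with the same floor. The cold level of 5.98% of control in WT was 3.2% without WT cold replicate 2, and that of 1.59% in uap1-2 was 1.04% without uap1-2 cold replicate 4. Control levels were 2.01 ± 0.563 CPM in WT, 1.52 ± 0.442 in uap1-1 and 2.99 ± 1.65 in uap1-2, where replicates 1 and 4 were high. The genes closest to it were less close than for the other members. They were AT5G27860 (r = 0.966), AT5G18630 (r = 0.962) and OASA2 (r = 0.962) over 24 libraries, and AT2G30120 (r = 0.902), LEW3 (r = 0.902) and AT4G39960 (r = 0.892) over the 12 control libraries. AT4G08505 also had the fewest control counts of the 5 genes, 621 over 12 libraries, and whether this lowered r was not tested.

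AT4G08505 lies across the 3′ end of a gene on the opposite strand that was also near 0 in the cold. The overlap with AT4G31405, a protein-coding gene of unknown function, is 343 bases (66% of AT4G08505). The strand setting of library and counting is not stated, so reads from this overlap cannot be told apart by strand, and 3.27% of the words of AT4G08505 also occur elsewhere. AT4G31405 had 24, 21, 60 and 86 counts in WT control and 0, 3, 0 and 0 in WT cold, 127 against 0 in all in uap1-1, and 188 against 6 in uap1-2. It fell in all 3 genotypes, with adjusted p = 1.1e-05 in WT, 1.54e-05 in uap1-1 and 4.36e-05 in uap1-2. The non-coding RNA gene AT4G31408 on its far side, 1444 bases from AT4G08505, also fell, by 3.51 on the log2 scale in WT (SE 0.43, adjusted p = 3.54e-07), with 99, 68, 39 and 66 counts in control and 8, 4, 4 and 6 in the cold. On the other side CTF7, an acetyltransferase needed for sister chromatid cohesion, rose by 1.34 in WT (SE 0.26, adjusted p = 0.00018), 1.82 in uap1-1 and 1.48 in uap1-2. The lncRNA gene AT4G31398, which overlaps CTF7, had a log2 change of -0.86 in WT (SE 0.44, adjusted p = 0.102) and fell by 1.08 in uap1-2 (SE 0.43, adjusted p = 0.0394).

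Taking the 22 genes that overlap or flank the 5 members, 18 were tested. In WT 10 fell and 2 rose, with a median log2 change of -0.72. In uap1-1 8 fell and 2 rose (-0.49), and in uap1-2 11 fell and 2 rose (-0.7). With library totals, 13 fell in uap1-1. Of all tested genes, 28.4% fell in WT, 29.2% in uap1-1 and 26% in uap1-2, and 25.8%, 26.7% and 26.5% rose. Their medians were -0.06, -0.07 and -0.01. The falls in WT include AT2G29290, AT2G29310 and AT2G29320, relatives of AT2G29300, and AT4G31405, which overlaps AT4G08505. Beside P1R3, UGD2, a UDP-glucose dehydrogenase gene 9019 bases away, rose by 1.43 in WT (SE 0.17), and AT3G29375 on the other side fell by 0.71 (SE 0.18). Beside AT1G12805, AT1G12810, which begins 120 bases downstream on the same strand, fell by 0.74 in WT (SE 0.16, adjusted p = 0.00045), from 20.5 ± 3.89 to 12.3 ± 1.92 CPM. AT1G12800 on its other side was at 163 ± 79.7 and 155 ± 67.6 CPM (log2 change -0.07, adjusted p = 0.879). None of the 4 tested genes around AT1G33055 passed the threshold in WT.

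**Figure D5:**
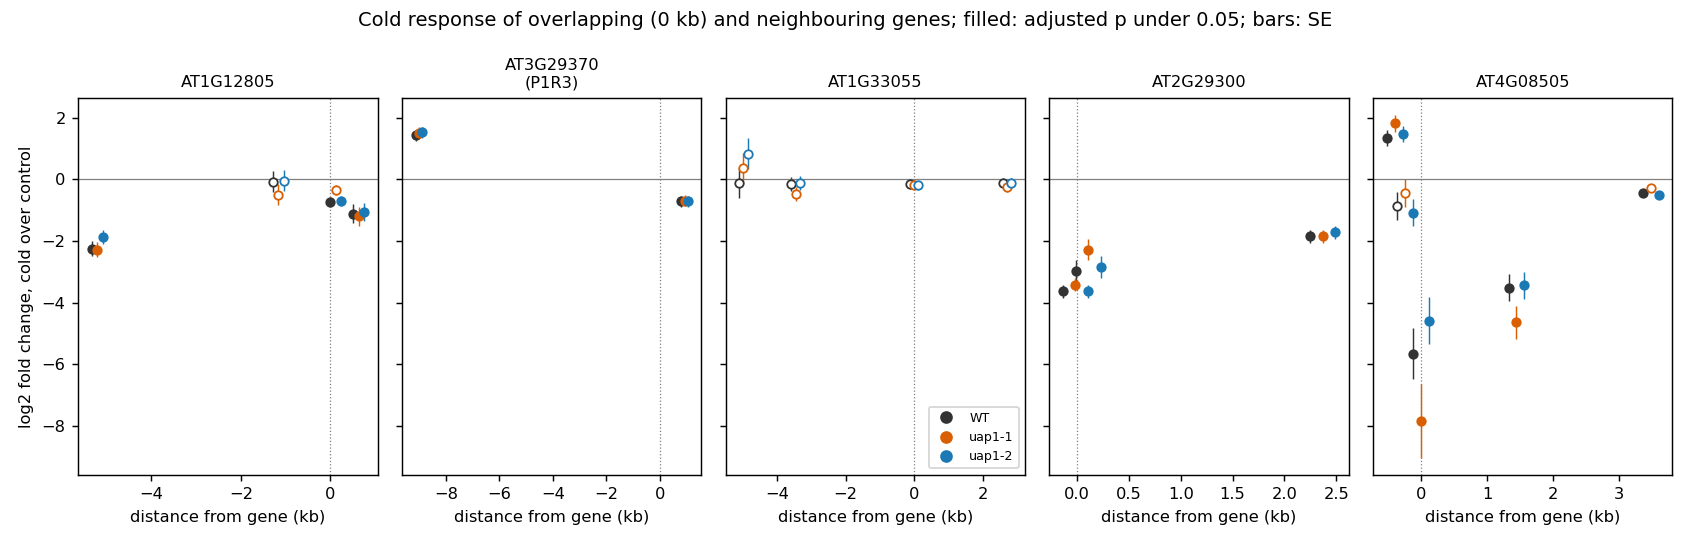
Log2 fold change of cold over control for genes overlapping (0 kb) or flanking each of the 5 genes, against distance in kb, by genotype, with bars of 1 SE and filled points for an adjusted p under 0.05; points of the genotypes are shifted sideways to keep them apart. The lowest points are AT4G31405 over AT4G08505 and the highest are UGD2 and CTF7.

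Whether the mutations altered the 5 genes was tested under control conditions, since the choice of genes used no difference between genotypes there. Against WT, 0 of the 5 were called in uap1-1 control (0.00467% of all genes were) or in uap1-2 control (0%), and uap1-2 differed from uap1-1 in 0 of the 5 (0.00933%). At an unadjusted p under 0.05 the counts of the 5 were 1, 0 and 2, and DESeq2 called 0 in each. Over all genes, edgeR called 1 gene in uap1-1 control, AT5G59220, 0 in uap1-2 control, and 2 between the mutants, AT5G59220 and AT5G17040. DESeq2 called 31, 13 and 23 genes, and unadjusted p values under 0.05 were found for 1961, 1152 and 1354. The choice required cold counts near 0, and group sums of AT1G12805, P1R3, AT1G33055 and AT4G08505 in the cold were 0 to 10. The tests that use cold counts are therefore not independent of the choice, and nothing is read from them. In the cold, edgeR called 0 of the 5 and 0% of all genes in uap1-1 and in uap1-2 against WT, with 1 and 0 of the 5, and 580 and 1014 of all genes, at an unadjusted p under 0.05. For the difference of the cold response from that of WT it also called 0 of the 5 and 0% of all genes in either mutant, with 2 and 0 of the 5, and 1842 and 371 of all genes, at an unadjusted p under 0.05. DESeq2 called 0 of the 5 in each of these and, over all genes, 1 gene in the cold response of uap1-1 and 0 in the other three.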

How the data were processed

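Poly(A) RNA of 24 seedling libraries was sequenced as paired reads, per the labels' protocols. The authors deposited 1 table of raw counts and FPKM for each library, and the deposited FPKM equalled count over length and library total within 0.005. The submitters' processing notes name cutadapt 1.9.1, HISAT2 2.2.1, HTSeq 0.6.1, StringTie 1.3.3b, DESeq2 1.26.0 and the build TAIR10, without roles. From the counts, genes were kept with filterByExpr (minimum count 10, minimum total 15), scaled by TMM, and fitted as 6 group means with edgeR 4.0.16 (quasi-likelihood test, R 4.3.3) over 21428 genes. P-values were adjusted by Benjamini-Hochberg, with a threshold of 0.05. Ratios of control to cold carry 95% exact binomial intervals for counting error only, with a floor of 3 counts over a group. Likeness is Pearson's r of log2 CPM with a prior count of 2, reported for the 3 closest genes of each member. Words of 31 bases were searched in the genome, and proteins with BLAST+ 2.17.0 (E value under 1e-10, at most 6 matches named). Other genes named are the nearest annotated genes (2 on each side), overlapping genes, and up to 4 low-oxygen genes that rose and 4 that fell with the smallest adjusted p in WT; AT5G10040 and the remaining dehydrogenases were added after values were seen, as were the comparison of uap1-2 with uap1-1 and the list counts under alternatives. The members, lists and tests were chosen with earlier results of these data known. DESeq2 1.42.0, library totals, no filter, a replicate block, smaller fits and single left-out libraries were alternatives.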

Additional observations from a re-analysis of the deposited data

How the results depend on the processing

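No member was called in the 3 comparisons of control groups under any alternative run. Left-out single cold libraries moved 10 of the 15 cold levels given as percent of control by over 1.5 times, with the values given beside the levels. Each move was downwards, but leaving out 1 of 4 libraries cannot raise a mean by that much, so the direction was fixed. The levels of AT1G12805 and AT4G08505 in uap1-1 were 0 and could not move. Counts of all genes called moved as follows. For uap1-1 against WT in control (1 gene), library totals gave 4, DESeq2 31 and leaving out single libraries 1 to 2 (2 without uap1-1 replicate 2, uap1-1 replicate 4 or WT replicate 3). For uap1-2 against WT in control (0), DESeq2 gave 13 and left-out libraries 0 to 1. For the cold response of uap1-1 against WT (0), DESeq2 gave 1 and left-out libraries 0 to 2. For uap1-2 against uap1-1 in control (2), library totals, the replicate block and a fit of the 2 groups each gave 1, DESeq2 23 and left-out libraries 1 to 2. Directions turned only for differences that were not called. In uap1-2 against WT control, P1R3 went from -0.18 to 0.18 without WT replicate 2 (range -0.56 to 0.18), and AT1G33055 from -0.23 to 0.065 without WT replicate 3 (range -0.46 to 0.065). In the difference of the cold response of uap1-1 from WT, which the choice of genes bears on, AT1G33055 went from 0.05 to -0.14 with library totals and to between -0.35 and 1.36 without single libraries, and in that of uap1-2, AT2G29300 went from 0.1 to between -0.22 and 0.39. The cause was not tested. The rise of LDH1 in uap1-1 lost its call with library totals (log2 change 0.4, adjusted p = 0.0772). With the replicate number as a block the counts of genes called in the cold were 11680, 12018 and 11281. Of 60 same-numbered pairs of libraries between groups, 23 had deviations correlated above 0.1 (-0.529 to 0.536), and in 1 of 15 pairs of groups, uap1-1 cold and uap1-2 cold, all 4 did (0.233 to 0.536). In each pair of control groups, 3 of 4 did: -0.111 to 0.46 for WT with uap1-1, -0.046 to 0.463 for WT with uap1-2, and -0.302 to 0.259 for the mutants. The numbers were not taken to pair the samples, though a partial pairing of the control groups is not excluded. Depth limits the cold values, where 1 count is the step.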
